A study of Mus musculus with 13 samples.

Results

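The activin, inhibin and Nodal genes were followed in mouse endothelial cells (ECs) in a study of Apelin loss. The 10 genes were taken by symbol from a list of the ligand genes Inhba, Inhbb and Nodal, the receptor genes Acvr1b, Acvr2a and Acvr2b, and the genes of the extracellular binders and inhibitors Fst, Fstl3, Lefty1 and Lefty2. All 10 were listed in every count file, among 25715 gene symbols in all. RNA-Seq was available from 13 libraries in 2 separate sets, and every comparison was made within a set.

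The first set held CD31+ CD105+ ECs sorted from tumors of E0771, a mouse mammary carcinoma line, with 100 cells per library. The Apelin-depleted group (n = 3 libraries) came from Apln-/- C57BL6/J mice that carried shApln tumor cells, and the Apelin wild-type group (n = 6) from wild-type mice of the same strain with shRenilla tumor cells. Apln was thus knocked out in the host and targeted by the shRNA in the tumor cells together, and the effects of the 2 sources cannot be told apart. The second set held CD31+ ECs sorted from sprouting embryoid bodies (EBs), which are aggregates of mouse embryonic stem cells (mESCs) that form vessel sprouts in collagen. Its mESCs, of mixed C57BL/6x129 background, carried a gene trap in the Apelin gene either in sense (labelled Apln STOP here, n = 2) or turned to antisense by a Cre virus in sister cells (labelled Apln GO, n = 2). Both groups received VEGFA164 at 30 ng/ml. Per the legends of the study, the Apln STOP EBs were given DMSO and the Apln GO EBs Apelin at 1000 nM, so that the trap, the Cre virus and the added peptide differ together and cannot be told apart. Nothing in the labels says that libraries came from separate animals or cultures, so the p-values measure the spread between these libraries, which may be technical.

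Activins are dimers of the beta subunits that Inhba and Inhbb encode, and they signal, as does Nodal, through type II receptors that recruit and activate type I receptors, which phosphorylate Smad2 and Smad3. Nodal also needs an EGF-CFC co-receptor, and it drives mesendoderm formation and left-right patterning in the embryo. Follistatin and its relative Fstl3 bind activins outside the cell, and the Lefty proteins block Nodal and are themselves induced by it.

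Totals ran from 4661044 to 14455093 counts in the tumor libraries and from 12327030 to 16804071 in the sprout libraries, so that 3 counts, taken as the floor, correspond to between 0.177 and 0.596 CPM, the counts scaled to the TMM-adjusted library size. Apln, the targeted gene, lay at 12.1, 8.51 and 2.44 CPM in the Apelin-depleted tumor ECs and between 416 and 1033 CPM in the wild-type ones. In the sprout ECs Apln did not follow the labels, with 66.1 and 80.2 CPM in the libraries labelled Apln STOP and 58.2 and 65.9 CPM in those labelled Apln GO. The 12 endothelial markers were detected in every library, and their summed level was 9114 to 16360 CPM in tumor ECs, 2664 and 2802 CPM in the libraries labelled Apln GO, and 696 and 948 CPM in those labelled Apln STOP. The 12 markers of undifferentiated mESCs summed to 2169 and 3538 CPM in the libraries labelled Apln GO and to 5670 and 5433 CPM in those labelled Apln STOP, above the endothelial markers in 3 of the 4 sprout libraries. In tumor ECs that sum was 71.4 to 477 CPM, most of it Klf4, which ECs also express, while Dppa5a was at 0 in all 9 libraries and Pou5f1 in 7.

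The sets differed in which of the 10 genes was highest for its length. In sprout ECs the deposited TPM ranked Lefty2 first in all 4 libraries (189 to 322 TPM), then Lefty1 (135 to 244) and then Nodal (35.3 to 64.0). The receptors followed, with Acvr1b at 27.8 to 32.0 TPM, Acvr2b at 18.8 to 24.9 and Acvr2a at 9.11 to 11.6. Fst spanned 5.90 to 22.6 TPM and overlapped both type II receptors, and Inhba (2.41 to 19.0), Fstl3 (2.51 to 5.29) and Inhbb (1.76 to 4.30) overlapped one another. The upper value of Inhba, in Apln GO replicate 1, lay above Acvr2b and Acvr2a in that library.

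In tumor ECs the same genes were ordered by CPM per kb of transcript, with lengths from the deposited sprout tables. Inhbb was highest in all 9 libraries, at a median of 47.3 CPM per kb (27.1 to 97.6). Acvr2b came next by median (7.82, range 3.33 to 11.7), and its range overlapped those of Acvr2a (median 3.65), Fstl3 (3.32), Lefty1 (2.33), Acvr1b (1.94), Inhba (1.78) and Fst (1.53). Lefty2 (median 0.0399) and Nodal (median 0) were last. The libraries of the 2 sets were prepared in different ways, so the orders stand side by side without a test.

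In ECs sorted from EBs, the question was whether the genes differed between libraries labelled Apln STOP and Apln GO. Nodal, Lefty1 and Lefty2 were higher in both libraries labelled Apln STOP and Fst was lower in both, while the receptors and the activin subunits overlapped. With edgeR's quasi-likelihood test, 0 of the 10 genes passed the study's pair of thresholds (adjusted p under 0.05 and an absolute log2 fold change over 1), against 3.88% of the 14557 genes tested. With the adjusted p alone, 1 gene, Nodal, passed as higher (1.92% of all genes did) and 0 as lower (4.3%). At an unadjusted p under 0.05 there were 3 higher and 1 lower, beside 12.4% and 14.3% of all genes. The groups did not overlap for 3 genes in the higher and 1 in the lower direction, a pattern that 31% and 29.6% of all genes showed, so the lack of overlap sets none of them apart. DESeq2 called 1 of the 10, Fst, where it called 6.12% of all genes.

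**Figure D1:**
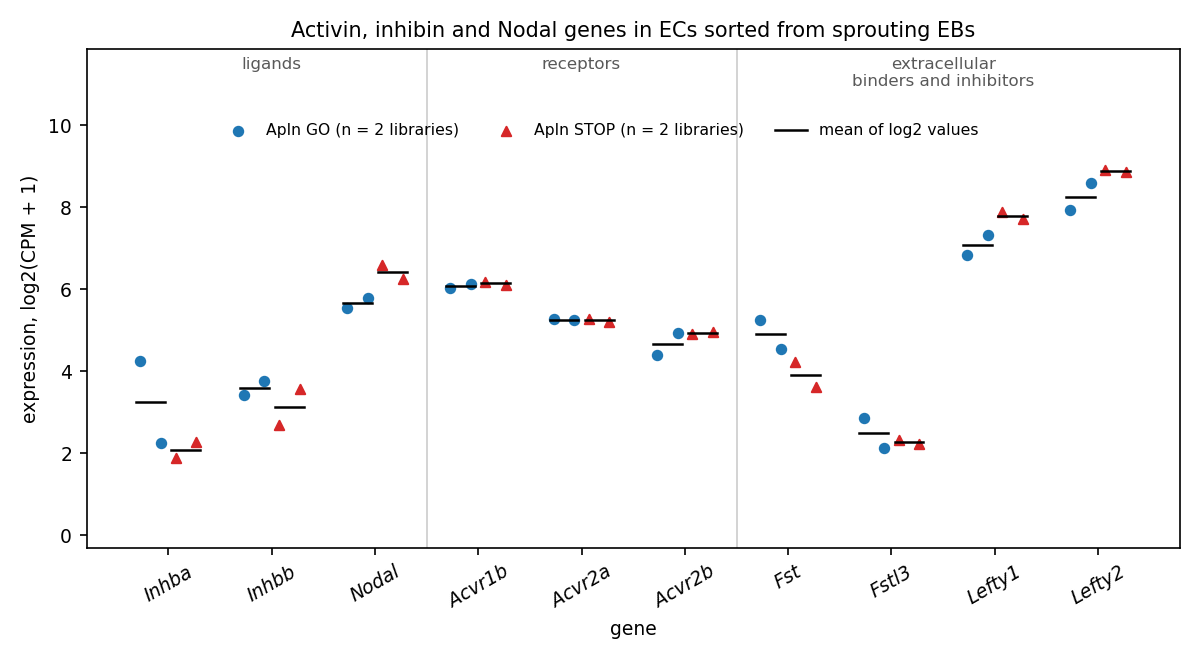
Expression of the 10 genes in the 4 sprout libraries, as log2(CPM + 1), with 1 point per library and a bar at the mean of each group (n = 2). The triangles of the libraries labelled Apln STOP lie above both circles for Nodal, Lefty1 and Lefty2 and below both for Fst. Acvr1b and Acvr2a lie level, and for Acvr2b the circle of Apln GO replicate 1 lies below the other points.

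The 3 ligand genes differ in the sequence upstream of their start. The 250 bases before the start site were read from the RefSeq promoter table (GRCm38.p6), which held 7 of the 10 genes (not Fst, Lefty1 or Lefty2) among 32851 promoters, and are shown for the ligands because Inhbb leads the 10 genes in tumor ECs and Nodal passed the adjusted p in sprout ECs. G+C content was 43.2% for Inhba, 53.2% for Nodal and 68% for Inhbb, and 19%, 52.6% and 87.8% of all promoters had less. Both strands were searched for 5 motifs that do not contain one another. The Smad box, CAGAC, is held by 42.2% of all promoters. The FoxH1 site, AATCCACA, is held by 0.718% of them. The TATA box, searched as TATAAA, is in 12.4%. The GC box, searched as GGGCGG, is in 32.7%. The octamer, ATGCAAAT, is in 1.6%. Capitals mark each match: 1 TATA box in Inhba, 91 bases before the start, 1 GC box on the opposite strand in Inhbb, and none in Nodal. A match is a description of the letters only.

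Nodal, chr10:61417722-61417971, plus strand: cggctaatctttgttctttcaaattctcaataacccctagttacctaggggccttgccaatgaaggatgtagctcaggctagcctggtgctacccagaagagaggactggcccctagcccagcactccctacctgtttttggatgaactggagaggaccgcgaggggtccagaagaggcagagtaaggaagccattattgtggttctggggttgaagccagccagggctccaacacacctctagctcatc

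Inhba, chr13:16011601-16011850, plus strand: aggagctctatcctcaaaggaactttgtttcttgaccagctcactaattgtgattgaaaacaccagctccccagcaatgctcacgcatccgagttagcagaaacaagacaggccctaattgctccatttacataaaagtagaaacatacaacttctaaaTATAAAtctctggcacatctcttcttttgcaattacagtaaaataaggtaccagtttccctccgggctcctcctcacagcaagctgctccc

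Inhbb, chr1:119422249-119422498, minus strand: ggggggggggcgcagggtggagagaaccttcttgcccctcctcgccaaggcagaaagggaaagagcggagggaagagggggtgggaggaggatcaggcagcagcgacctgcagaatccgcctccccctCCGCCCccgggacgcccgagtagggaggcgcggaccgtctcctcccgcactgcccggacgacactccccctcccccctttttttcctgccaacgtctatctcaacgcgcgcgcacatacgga

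Nodal (chr10:61417972-61425338, GRCm38, plus strand) encodes the ligand of the Nodal pathway. It had 45.2 and 54.2 CPM in the libraries labelled Apln GO and 95.6 and 74.6 CPM in those labelled Apln STOP. Its log2 fold change was 0.78 (standard error 0.17, 95% interval 0.37 to 1.18, edgeR adjusted p = 0.0422), past the adjusted p but short of the fold threshold. By DESeq2 the adjusted p was 0.0049, and in edgeR without a filter on low counts it was 0.00245. In edgeR it was 0.0455 with DESeq2 size factors, 0.0462 with total counts and 0.0507 with rounded RSEM expected counts in place of HTSeq counts. With the replicate block it was 0.146. The log2 fold change was 0.65 without Apln GO replicate 1, 0.92 without Apln GO replicate 2, 0.61 without Apln STOP replicate 1 and 0.93 without Apln STOP replicate 2.

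Lefty1 and Lefty2 (chr1:180935022-180938400 and chr1:180893108-180899103, both plus strand) encode secreted inhibitors of Nodal. Lefty1 had 114 and 158 CPM in the libraries labelled Apln GO and 236 and 207 CPM in those labelled Apln STOP, which is 0.71 on the log2 scale (standard error 0.18, edgeR adjusted p = 0.0592). Lefty2 had 241 and 380 CPM against 478 and 463 CPM, or 0.60 on the log2 scale (standard error 0.22, edgeR adjusted p = 0.142). Neither passed the adjusted p in the main edgeR fit. By DESeq2 the adjusted p was 0.00817 for Lefty1 and 0.0584 for Lefty2. In edgeR without a filter on low counts it was 0.00589 for Lefty1 and 0.0569 for Lefty2. The fold changes were again under the fold threshold in both. Without Apln GO replicate 2 the edgeR adjusted p was 0.0199 for Lefty1 (log2 fold change 0.96) and 0.0160 for Lefty2 (0.97), and without Apln GO replicate 1 the log2 fold change of Lefty2 was 0.31 (edgeR adjusted p = 0.436). Between the libraries labelled Apln GO, replicate 1 was the lower for Nodal, Lefty1 and Lefty2, and between those labelled Apln STOP, replicate 2.

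Lefty1 and Lefty2 are close copies, which bears on how reads were assigned. Their coding sequences have the same length, 1104 bases, and 91.8% of positions are identical when they are laid side by side without gaps. Of all 50-base windows, the length of the reads, 26.6% of those in the coding sequence occur in both genes. The longest identical run is 140 bases, and no read inside it can tell the genes apart.

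RSEM, which shares out reads that fit several places, gave 1.15 times the HTSeq count for Lefty1 and 1.17 times for Lefty2 over the 4 sprout libraries, where the median gene had 0.997 times and Nodal 0.988 times. The ratio of Lefty2 to Lefty1 per kb was 1.32 and 1.46 in the libraries labelled Apln STOP and 1.38 and 1.57 in those labelled Apln GO, so both genes kept nearly the same proportion in all 4.

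The mESC markers moved in the direction of Nodal, Lefty1 and Lefty2, and the endothelial markers in the opposite one. Of the 12 mESC markers, 11 had a higher level in the libraries labelled Apln STOP and 2 of them, Dppa5a and Fgf4, passed both thresholds (median log2 fold change of the list 0.94). All 12 endothelial markers were lower there by adjusted p and 11 passed both thresholds (median -1.96), among them Eng, the gene of the CD105 antigen (-1.06). Of all genes 0.852% were higher and 3.03% lower by both thresholds, and 4.3% were lower by the adjusted p alone. Per 1000 CPM of mESC markers, Nodal stood at 20.8 and 15.3 CPM in the libraries labelled Apln GO and at 16.9 and 13.7 CPM in those labelled Apln STOP, which overlap. On the same scale Lefty1 was at 52.4 and 44.5 against 41.6 and 38.0, and Lefty2 at 111 and 108 against 84.3 and 85.3. Both thus lay lower in the libraries labelled Apln STOP on this scale, whose divisor was itself higher there, and no test was run on it. The part of the mESC markers in the fold changes was not tested, and in bulk samples fewer cells of a type and less RNA per cell cannot be told apart.

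**Figure D2:**
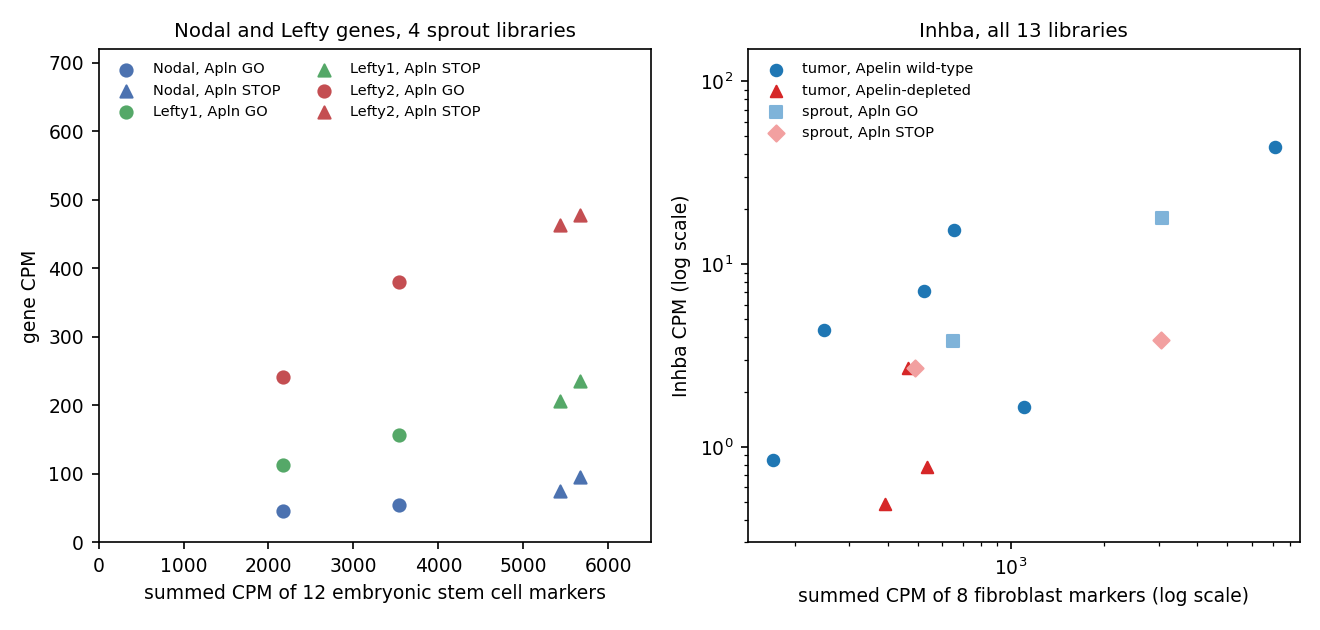
Left, CPM of Nodal, Lefty1 and Lefty2 in the 4 sprout libraries against the summed CPM of 12 mESC markers; the libraries labelled Apln STOP (5670 and 5433 CPM of markers) lie to the right of and above those labelled Apln GO (2169 and 3538). Right, CPM of Inhba against the summed CPM of 8 fibroblast markers in all 13 libraries, both on log scales; Apelin wild-type replicate 2 of the tumor set (43.8 and 7112 CPM) lies farthest to the upper right.

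Fst (chr13:114452290-114458951, minus strand) encodes follistatin. It had 36.9 and 22.4 CPM in the libraries labelled Apln GO and 17.5 and 11.3 CPM in those labelled Apln STOP. The log2 fold change was -1.04 (standard error 0.32, 95% interval -1.79 to -0.28), with an adjusted p of 0.102 by edgeR and 0.0266 by DESeq2. DESeq2 was fitted without the filter on low counts (19441 genes, against 14557 in the main fit), so the tool and the filter changed together. Fst also passed in edgeR without that filter (adjusted p = 0.0404). In edgeR it did not pass with RSEM expected counts (adjusted p = 0.129) or with the replicate block (adjusted p = 0.115). Without single libraries the log2 fold change ran from -1.37 to -0.63, the latter without Apln GO replicate 1. The other activin binder gene, Fstl3 (chr10:79777272-79782630, plus strand), had 6.31 and 3.39 CPM against 4.00 and 3.67 CPM, and its groups overlapped. Without Apln GO replicate 1 its log2 fold change turned from -0.35 to 0.18. Of the 50-base windows of Fstl3 transcripts, 46.2% also lie in Prss57, which overlaps it on the other strand and which had at most 0.0807 CPM in either group mean of the sprout ECs.

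The subunit genes of activins were low in sprout ECs. Inhba (chr13:16011851-16031621, plus strand), which encodes the beta A subunit, had 17.9 and 3.79 CPM in the libraries labelled Apln GO and 2.71 and 3.83 CPM in those labelled Apln STOP. The high value was that of Apln GO replicate 1, which held 86.6% of the group's Inhba counts, and the other 3 libraries lay close together. The fitted difference was -1.74 on the log2 scale (standard error 0.80, edgeR adjusted p = 0.253) and became -0.22 without that library (edgeR adjusted p = 0.883). Fibroblast markers were high in the same library, at 3083 CPM, but were as high in Apln STOP replicate 2, at 3054 CPM, where Inhba was at 3.83 CPM. The mural marker sum was highest in Apln GO replicate 1, at 630 CPM, against 283 CPM in replicate 2 and 267 and 414 CPM in the libraries labelled Apln STOP. The part of these markers in the Inhba values was not tested. Inhbb (chr1:119415465-119422248, minus strand), for the beta B subunit, had 9.73 and 12.5 CPM against 5.42 and 10.8 CPM (log2 fold change -0.46, standard error 0.36, adjusted p = 0.457 by edgeR), and its groups overlapped.

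The receptors had the smallest fold changes of the 10 genes in sprout ECs. Acvr1b (chr15:101174067-101213684, plus strand), the type I receptor also called ALK4, had 63.8 and 69.2 CPM in the libraries labelled Apln GO and 71.0 and 68.2 CPM in those labelled Apln STOP. Acvr2a (chr2:48814109-48903269, plus strand), a type II receptor, had 37.4 and 36.7 against 37.9 and 35.5 CPM. Acvr2b (chr9:119402118-119434995, plus strand), the other type II receptor, had 19.9 and 29.3 against 29.2 and 30.1 CPM. The 95% intervals of the log2 fold change ran from -0.25 to 0.38 for Acvr1b, from -0.36 to 0.34 for Acvr2a and from -0.23 to 0.78 for Acvr2b, all within the fold threshold of 1 in either direction.

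Among the other genes of the pathway, 3 passed both thresholds in sprout ECs, all lower, where 3.03% of all genes were lower and 0.852% higher by that rule. Of 20 further ligands, receptors, co-receptors and extracellular regulators, 15 were tested, 1 fell and 0 rose past both thresholds (median log2 fold change -0.66, against 0.01 over all genes tested). The gene that fell was Tgfbr3, the co-receptor betaglycan, which binds inhibins (from 76.4 to 26.4 CPM, log2 fold change -1.53, standard error 0.19, adjusted p = 0.00621 by edgeR). By the adjusted p alone, Furin, a protease that processes such ligands (-0.83, adjusted p = 0.0227 by edgeR), and Acvr1, a type I receptor (-0.78, adjusted p = 0.0474 by edgeR), were lower as well, and in this list 6 genes were lower and 2 higher at an unadjusted p under 0.05. Furin, Acvr1 and the 2 higher genes were chosen after their values were seen. The higher ones were Tdgf1, the EGF-CFC co-receptor of Nodal, and Gdf3, a ligand that also uses it. Tdgf1 had a mean of 365 CPM in the libraries labelled Apln GO and 670 CPM in those labelled Apln STOP (log2 fold change 0.88, adjusted p = 0.0575 by edgeR), and Gdf3 41.3 and 77.5 CPM (0.91, adjusted p = 0.0879 by edgeR). Of 18 genes of Smad signal transduction all were tested and 0 passed both thresholds (7 had an unadjusted p under 0.05, 5 of them negative, beside the 14.3% of all genes that were lower), and the list had a median of -0.02 on the log2 scale. By the adjusted p alone 1 gene of this list was lower, Pmepa1 (log2 fold change -0.86, adjusted p = 0.0432 by edgeR), where 4.3% of all genes were.

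Of 15 genes known to respond to Nodal or activin in the early embryo 14 were tested, 0 rose and 2 fell past both thresholds, and the median of the list was -0.47 on the log2 scale. The 2 that fell were Hhex (from 34.4 to 11.5 CPM, log2 fold change -1.58, adjusted p = 0.00807 by edgeR) and Sox17 (from 50.8 to 12.9 CPM, -1.98, adjusted p = 0.0196 by edgeR). Hhex and Sox17 are transcription factor genes of endoderm that are also active in endothelium, and Sox17 stands in the endoderm marker list too. Of 8 endoderm markers 7 were tested, 6 had negative fold changes and 2, Sox17 and Afp, passed both thresholds, and the list summed to 130 and 94.3 CPM in the libraries labelled Apln GO and to 29.9 and 52.0 CPM in those labelled Apln STOP. The 12 endothelial markers fell between the same libraries, as given above, and the part of either list in the values of Tgfbr3, Hhex and Sox17 was not tested. With the replicate block 0 genes of the pathway lists were called, and without Apln STOP replicate 1 there was 1.

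In tumor ECs, the question was whether the genes differed between Apelin-depleted and Apelin wild-type tumors. Inhbb was abundant in both groups, Inhba and Lefty1 were lower on average in the Apelin-depleted group with wide spreads, and Nodal and Lefty2 were near or at 0. The filter on low counts left 8 of the 10 genes for testing, without Nodal and Lefty2. With edgeR's quasi-likelihood test 0 of the 8 passed both thresholds, where 0.00765% of all 13073 genes did (1 gene, Apln), and DESeq2, which called 0.802% of all genes, called 0 of the 10 and gave Fst no adjusted p. At an unadjusted p under 0.05 there were 0 higher (1.87% of all genes) and 1 lower, Inhba (2.94%). The groups overlapped for every tested member, and 1.06% of all genes did not overlap and were higher, and 1.27% lower.

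**Figure D3:**
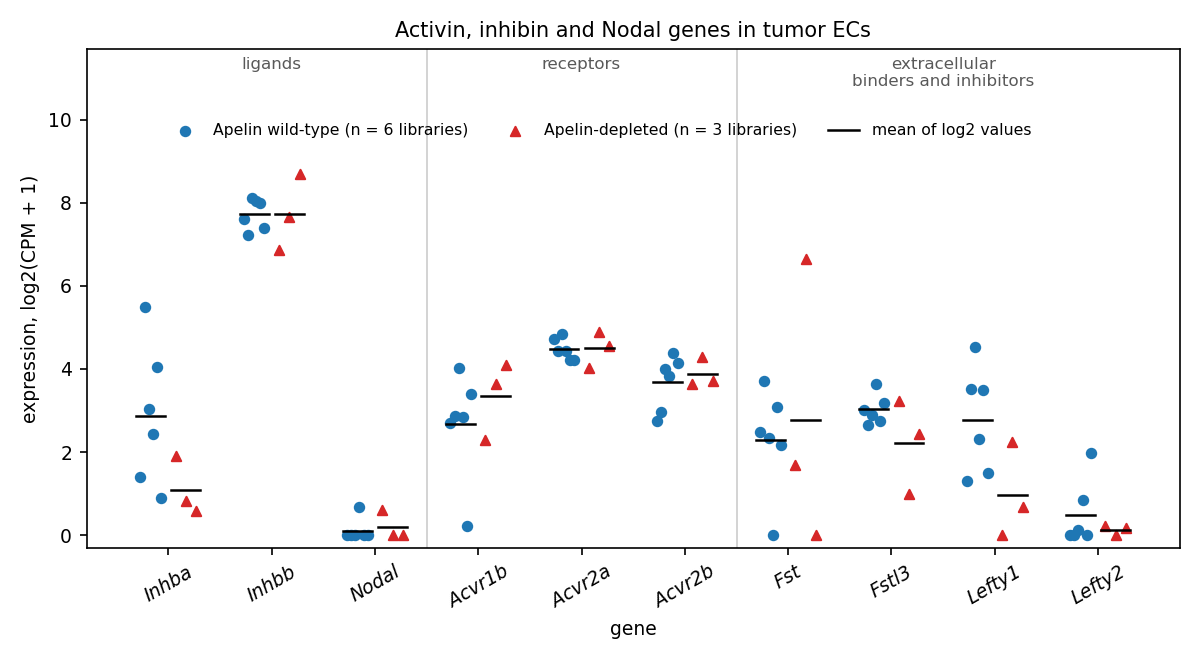
Expression of the 10 genes in the 9 tumor EC libraries, as log2(CPM + 1), with 1 point per library and a bar at the mean of each group (n = 6 Apelin wild-type, n = 3 Apelin-depleted). Inhbb is highest in both groups, Inhba, Acvr1b, Fst and Lefty1 are spread more widely than the other genes in the wild-type group, and 1 Apelin-depleted library stands far above the others for Fst.

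Inhbb was measured with the most counts of the 10, from 678 to 3408 per tumor library. It had 115, 201 and 415 CPM in the Apelin-depleted libraries, and in the wild-type ones the lowest was 148, the median 224 and the highest 276 CPM. The lowest Apelin-depleted value lay below the whole wild-type range, the highest above it and the middle one within it. The log2 fold change was 0.17 (standard error 0.36, 95% interval -0.60 to 0.94, adjusted p = 1.00 by edgeR), and it turned to -0.45 without Apelin-depleted replicate 3.

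Inhba had 2.72, 0.774 and 0.487 CPM in the Apelin-depleted ECs, from 16, 11 and 4 counts. In the wild-type ECs its lowest value was 0.848, its median 5.77 and its highest 43.8 CPM, from 6, 47.5 and 448 counts. Replicate 2 held 69.2% of the wild-type group's Inhba counts, and replicate 5 had the next highest level, 15.5 CPM. Apelin-depleted replicate 1 lay above 2 of the wild-type libraries. The log2 fold change was -3.22 (standard error 1.31, 95% interval -6.00 to -0.43, edgeR p = 0.0264 unadjusted and 0.981 adjusted), and the exact 2-sided permutation test of log2(CPM + 1) gave p = 0.119, where 3 against 6 libraries can reach 0.0238. Without wild-type replicate 2 the log2 fold change was -2.16 (edgeR adjusted p = 0.999).

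Fibroblast markers varied most in the same group as Inhba. The 8 markers summed to 7112 CPM in wild-type replicate 2 and to 170 to 1104 CPM in the other wild-type libraries, against 391 to 534 CPM in the Apelin-depleted ones; Lum was at 0 in 4 of the 9 libraries and no other marker was. Inhba was at 15.5 CPM in wild-type replicate 5, with a fibroblast sum of 655 CPM, and at 1.65 CPM in replicate 1, with a sum of 1104 CPM. Most of the sum in the Apelin-depleted libraries was Fbln2 (mean 378 CPM, where the mean sum was 463 CPM). In the wild-type libraries Fbln2 ran from 92.3 to 1041 CPM, so a sum can rest largely on this gene. The order of the libraries by Inhba was closer to that by 8 markers of mural cells, the pericytes and smooth muscle cells around vessels. Their sums in wild-type replicates 1 to 6 were 72.9, 439, 174, 97.7, 264 and 64.2 CPM, and in Apelin-depleted replicates 1 to 3 they were 79.9, 70.8 and 63.5 CPM. Wild-type replicates 2, 5, 3 and 4 were the highest, in that order, for both Inhba and this sum. With edgeR 7 of the 8 mural markers had negative fold changes (median log2 fold change of the list -1.34), 2 of them at an unadjusted p under 0.05 and 0 after adjustment. At most 1 mural marker was at 0 in a library. All 7 fibroblast markers tested had negative fold changes too (median -4.64), 1 of them at an unadjusted p under 0.05 and 0 after adjustment. The part of the fibroblast and mural markers in the Inhba difference was not tested.

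The 5 genes most like Inhba over the 9 tumor libraries, by Pearson's r of log2(CPM + 1), were Ednra (0.95), Mettl4 (0.94), Col5a3 (0.93), Afdn (0.93) and Spon1 (0.93). Leaving out wild-type replicates 2 and 5, which lay farthest from the median of Inhba, r was 0.97, 0.79, 0.86, 0.89 and 0.85 in the same order. Within the 6 wild-type libraries it was 0.95, 0.95, 0.98, 0.89 and 0.90. These are the highest of 13073 genes over few libraries, whose depth and marker sums differ and act on every gene of a library, and they are given as a description. Among the 8 tested members, Lefty1 was most like Inhba (r = 0.69) and Inhbb was not (r = -0.20).

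Lefty1 was detected in 8 of the 9 tumor libraries. It had 0, 3.73 and 0.609 CPM in the Apelin-depleted ECs, and in the wild-type ones the lowest was 1.46, the median 7.11 and the highest 22.2 CPM. The Apelin-depleted values reached into the lower part of the wild-type range. The log2 fold change was -2.49 (standard error 1.37, 95% interval -5.40 to 0.43, edgeR p = 0.0892 unadjusted and 1.00 adjusted), and the exact 2-sided permutation p was 0.0952. Lefty2, its close copy, had 28 counts in all 9 libraries together, 21 of them in wild-type replicate 6. Where Lefty1 was highest, in wild-type replicate 3 with 226 counts, Lefty2 had 1 count, and the ratio of Lefty2 to Lefty1 per kb was 0.00288, under the 1.32 to 1.57 of the sprout ECs, while in replicate 6 it was 1.05.

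Nodal was not detectable in most tumor libraries. It had 3 counts in Apelin-depleted replicate 1 and 3 in wild-type replicate 4, and 0 in the other 7, which at these depths allows up to between 0.211 and 0.548 CPM for counting error alone. No difference between the groups was detectable at this depth.

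Among the activin binders, Fst showed 1 library far above the rest. It had 2.21, 99.6 and 0 CPM in the Apelin-depleted ECs, and in the wild-type ones the lowest was 0, the median 4.30 and the highest 12.02 CPM. Replicate 2 held 99.1% of the Apelin-depleted group's Fst counts. The fitted log2 difference of 2.68 (standard error 1.45, edgeR adjusted p = 1.00) turned to -2.26 without that library, so its direction rests on 1 library. Fstl3 had 8.33, 0.9849 and 4.39 CPM against a wild-type range of 5.28 to 11.5 CPM with a median of 6.80, and its groups overlapped (log2 fold change -0.69, standard error 0.93, adjusted p = 1.00 by edgeR). Prss57, which overlaps Fstl3, was at 0 in all wild-type libraries and averaged 1.41 CPM in the Apelin-depleted ones.

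All 3 receptor genes were expressed in tumor ECs, with wider spreads than in sprout ECs. Acvr2a had 15.3, 28.8 and 22.7 CPM in the Apelin-depleted libraries and 17.5 to 27.7 CPM, with a median of 20.7, in the wild-type ones. Acvr2b had 11.4, 18.5 and 12.1 CPM against 5.67 to 19.98 CPM, with a median of 14.1. Acvr1b had 3.91, 11.5 and 16.1 CPM against 0.174 to 15.2 CPM, with a median of 6.25, the lowest value being 1 count in wild-type replicate 5. The groups overlapped for each, and the 95% intervals of the log2 fold change were -0.95 to 1.04 for Acvr2a, -1.23 to 1.47 for Acvr2b and -1.48 to 2.57 for Acvr1b.

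**Figure D4:**
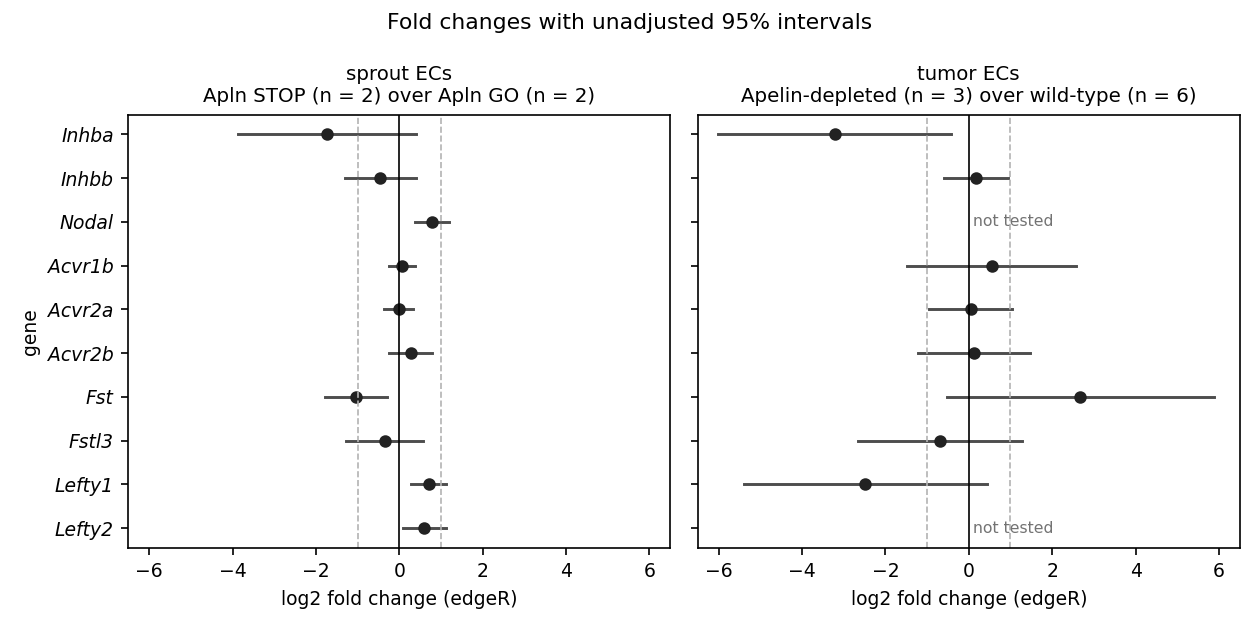
Log2 fold changes of the 10 genes by edgeR with unadjusted 95% intervals, for libraries labelled Apln STOP over Apln GO (left) and for Apelin-depleted over wild-type tumor ECs (right); dashed lines mark the fold threshold of 1. The intervals are narrow for the receptors, Nodal and Lefty1 in sprout ECs and wide in tumor ECs for Inhba, Fst and Lefty1, and Nodal and Lefty2 were not tested in tumor ECs.

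The other genes of the pathway gave no call in tumor ECs. Of the 20 further ligands, receptors, co-receptors and extracellular regulators 9 were tested, of the 18 Smad genes 17 and of the 15 responding genes 3, and 0 passed both thresholds with edgeR or DESeq2. At an unadjusted p under 0.05 there were 1, 1 and 0, each higher in the Apelin-depleted group. The median log2 fold changes of the lists were 0.02, 0.10 and 0.23, against -0.03 over all genes tested. Of the co-receptors that Nodal needs, Tdgf1 averaged 0 CPM in the Apelin-depleted and 0.0331 CPM in the wild-type ECs, and Cfc1 was at 0 in both.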

How the data were processed

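The deposited files were gene counts for the 9 tumor EC libraries and HTSeq gene counts, RSEM expected counts and TPM for the 4 sprout EC libraries. Per the authors, tumor libraries were made with Smart-Seq2 from sorted cells and the raw counts are not normalized; the study's methods name STAR for them and the submitters' processing notes Bowtie2 2.3.4.1 with Subread 1.6.2, which leaves the aligner uncertain. The authors aligned the sprout reads with STAR 2.5.0a to mm10 and counted them with HTSeq 0.6.1p1, which leaves out reads that fit several genes, while their RSEM 1.2.25 expected counts and the deposited TPM values share such reads out and TPM also divides by transcript length. Whether counting used strand is not given in the sources used here. Between 42.6% and 49.6% of the sprout tallies were for reads without a unique place, and the 5 tally lines were left out of library sizes.

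Counts were fitted with edgeR 4.0.16 in R 4.3.3 (TMM, filterByExpr with a minimum count of 10, robust quasi-likelihood test) over all genes of a set, with Benjamini-Hochberg adjustment. Calls needed an adjusted p under 0.05 and an absolute log2 fold change over 1. Each set was fitted on its own groups. Single tumor values were also tested by exact permutation of log2(CPM + 1), over 84 splits. Expected counts were rounded for the alternative that used them. Other alternatives were DESeq2 1.42.0, voom with sample weights (limma 3.58.1), other scalings and filters, a replicate block and leaving out each library. Intervals are 95% and unadjusted, and floors of 3 counts cover counting error only. The scripts were tested on simulated data.

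The 10 genes and all gene lists were chosen with earlier results of these data known. The rule for named genes took the 10 genes, list genes that passed both thresholds (up to 5 per list), the 5 genes most correlated with Inhba, and Apln and Eng as checks of the labels. Marker lists are mostly given as sums and counts, without naming each gene the rule allows. Outside this rule, Klf4, Dppa5a, Pou5f1, Lum, Fbln2, Prss57, Cfc1, Furin, Acvr1, Pmepa1, Tdgf1 and Gdf3 are named for marker levels, overlap or role, and were chosen after their values were seen. Transcript lengths for tumor levels were those in the deposited RSEM tables, and gene positions came from GENCODE vM21 (GRCm38).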

Additional observations from a re-analysis of the deposited data

Results flagged for a closer look

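In the Apelin wild-type tumor ECs (n = 6), 3 of the 10 genes had 1 library far from the others by Dixon's test on CPM. Chance flags about 1 of 20 groups of normal values, and CPM are skewed, so the rate here is not known. Inhba was at 43.8 CPM in replicate 2 (448 counts), where the next highest library had 15.5 CPM. Lefty2 was at 2.97 CPM in replicate 6 (21 counts), and the next highest library had 0.794 CPM. Nodal was at 0.596 CPM in replicate 4 and at 0 in the other 5, a pattern that any count above 0 in 1 library alone would have met, and the value is 3 counts, the floor. Groups of 3 or fewer libraries were not tested.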

How the results depend on the processing

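In tumor ECs 0 of the members passed under any alternative, and the 1 gene called in all became 116 with DESeq2, 16 without a filter on low counts, 2 with voom, 2 with the replicate block and 1 to 2 when single libraries were left out. DESeq2 and the unfiltered fit moved the median of all genes to -0.13. The direction of Fst turned to -0.87 with the replicate block, -0.36 with voom and between -2.26 and 3.27 without single libraries. Acvr2a turned to -0.015 with total counts and -0.18 with the block, and ranged from -0.19 to 0.25 without single libraries. Without single libraries Acvr2b ranged from -0.14 to 0.29 and Inhbb from -0.45 to 0.50. With the replicate block Acvr2b was at 0.72 (0.12 in the main fit) and Acvr1b at 0.15 (0.55 in the main fit). Inhba and Lefty1 kept their negative sign under all 17 alternatives, and none passed. Single libraries moved Inhba between -4.24 and -2.16, Lefty1 between -4.65 (without Apelin-depleted replicate 2) and -1.91, Fstl3 between -1.46 and -0.22 (without Apelin-depleted replicates 1 and 2) and Acvr1b between 0.11 and 0.93.

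In sprout ECs the 565 genes called became 854 without a filter, 905 by the adjusted p alone, 44 with the replicate block and 148 to 887 without single libraries. The share of calls that were lower was 78.05% and ran from 61.56% without Apln GO replicate 2 to 93.18% with the block. The number of members called, 0, became 1 with DESeq2, 1 without a filter, 1 by the adjusted p alone, and 0 to 2 without single libraries (Inhba and Fst without Apln GO replicate 2). The 3 pathway list genes became 0 with the block, 6 by the adjusted p alone and 1 to 8 without single libraries. Without single libraries Fstl3 ranged from -0.71 to 0.18, Fst from -1.37 to -0.63, Inhbb from -1.04 to -0.013, Acvr2b from 0.017 to 0.58 and Acvr2a from -0.041 to 0.021. The causes were not tested.

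The replicate numbers did not pair the libraries: same-numbered libraries had correlations of -0.07, 0.06 and -0.14 in tumor ECs and -0.43 in sprout ECs. Crossed numbers gave 0.43 in sprout ECs, which with 2 libraries per group is the same value with its sign turned. With the replicate block 2 genes were called in tumor ECs and 44 in sprout ECs. The crossed pairing was added once the data had been seen, and with it the block called 1235 genes, 7 of the pathway lists and 1 member, Inhba. There were 2 libraries per sprout group, and in tumor ECs Inhba, Nodal, Acvr1b, Fstl3, Lefty1 and Lefty2 had means under 10 CPM. Depth and number may limit what can be detected, which was not tested.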
